A study of Mus musculus with 6 samples.

Results

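Transcripts of 6 genes of the red blood cell were followed in mouse brain: the adult alpha-globin genes Hba-a1 and Hba-a2, the adult beta-globin genes Hbb-bs and Hbb-bt, the haem synthesis gene Alas2 and the membrane transporter gene Slc4a1. They were taken by name and are 6 of the 56748 genes in the deposited table. The mice carried an implant of MCF10DCIS CD63-NanoLuC cells, and brain was taken 3 days (3 libraries) or 28 days (3 libraries) after implantation. MCF10DCIS, a human breast line, grows as lesions like ductal carcinoma in situ, in which tumour cells stay within the milk ducts. NanoLuC is a luciferase, here joined to the vesicle tetraspanin CD63, and the series title places the work in an intraductal model. Every mouse of both groups had received these cells, and there is no unimplanted group to compare with. The sources used here do not give strain, sex or age, nor whether vessels were flushed before dissection. The labels do not tie each library to an animal of its own. A p-value therefore measures only the spread between these 6 libraries, and some of that spread may be technical.

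Haemoglobin, the oxygen carrier of red blood cells, is built from alpha and beta chains that each hold a haem group. Mouse red cells lose their nucleus before they enter the blood, and young circulating cells (reticulocytes) keep globin and Alas2 mRNA for a time. ALAS2 is the erythroid form of the first enzyme of haem synthesis, and SLC4A1 (band 3) is the anion exchanger that anchors the red cell membrane to its skeleton. In brain tissue these mRNAs are usually ascribed to blood in the vessels, and globin mRNA has also been described in neurons, among them dopamine neurons of the midbrain. In bulk tissue, fewer cells of a type and less RNA per cell cannot be told apart.

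The 2 alpha genes, and likewise the 2 beta genes, are close copies. Within the coding sequence Hba-a1 and Hba-a2 differed at 1 of 429 bases, and Hbb-bs and Hbb-bt at 1 of 444, in the GENCODE M21 transcripts. These are the stretches around the differing base, which is in capitals, and they show how little of the coding sequence tells the copies apart:
Hba-a1: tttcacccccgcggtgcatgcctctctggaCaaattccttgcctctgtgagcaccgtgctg
Hba-a2: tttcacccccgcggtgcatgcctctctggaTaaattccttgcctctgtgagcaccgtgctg
Hbb-bs: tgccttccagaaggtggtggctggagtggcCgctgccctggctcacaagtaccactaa
Hbb-bt: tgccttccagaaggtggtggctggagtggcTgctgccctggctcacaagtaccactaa
Counted from the A of the start codon, the alpha stretches run from base 351 to 411 with the substitution C381T, and the beta stretches from base 387 to 444 with C417T. Of all 50-base windows of the whole transcript, 32.5% in Hba-a1 and 13.1% in Hba-a2 were not found in the other copy, against 34.2% in Hbb-bs and 41.7% in Hbb-bt. Neither the read length nor the treatment of shared reads is given in the sources used here. The split between copies is therefore uncertain, and each pair is also given as a sum.

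RefSeq held a promoter entry for 5 of the 6 genes. Hba-a2 has the letters of Hba-a1, shifted by its start site, and is left out. The window before the start site is printed from base -120 to -1 for the other 4:
Hba-a1: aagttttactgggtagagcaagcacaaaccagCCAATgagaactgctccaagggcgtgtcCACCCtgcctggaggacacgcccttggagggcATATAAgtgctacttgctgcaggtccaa
Hbb-bs: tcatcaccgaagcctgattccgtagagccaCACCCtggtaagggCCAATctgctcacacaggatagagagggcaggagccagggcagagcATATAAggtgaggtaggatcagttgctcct
Hbb-bt: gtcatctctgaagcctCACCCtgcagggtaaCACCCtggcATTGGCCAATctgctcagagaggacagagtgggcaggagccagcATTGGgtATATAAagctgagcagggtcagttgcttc
Alas2: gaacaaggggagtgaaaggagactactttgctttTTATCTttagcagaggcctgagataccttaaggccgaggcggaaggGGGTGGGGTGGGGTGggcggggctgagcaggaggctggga
In GRCm38.p6, the build of the RefSeq table, these are chr11:32283552-32283671, plus strand for Hba-a1, chr7:103827929-103828048, minus strand for Hbb-bs, chr7:103813924-103814043, minus strand for Hbb-bt and chrX:150547297-150547416, plus strand for Alas2. Capitals mark 4 motifs, matched on either strand. The letters CACCC are those of the box read by KLF-family factors. The CCAAT box is a common promoter element. The TATA-like motif was searched as ATATAA alone. The GATA motif, read by GATA factors, was searched with adenine or thymine before it and adenine or guanine after it. Some matches adjoin, as in the repeated CACCC letters of Alas2. Over the whole 300-base entry, which reaches 50 bases past the start, all 4 globin genes held the CACCC letters, the CCAAT box and the TATA-like motif together, a combination found in 1.84% of 32544 promoters. GATA letters were found in the entries of Hba-a1, Hba-a2, Hbb-bs and Alas2 and in 29.6% of all promoters. The CACCC letters were in 57.7% of all promoters, the CCAAT box in 37.4% and the TATA-like motif in 9.82%. The alpha entries were identical over the 297 bases they share, while the beta entries matched at 56.2% of 299. A match is a description of letters and says nothing of factor binding.

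Library depth ran from 11958137 to 16059196 reads, and neuronal, astrocyte, oligodendrocyte and microglial markers were present in every library, with Snap25 between 34277 and 36555 normalized counts. A normalized count is a read count divided by the library's size factor. One library stood apart before any comparison: day 3 replicate 2 held 65795 reads of Alb, the liver-made plasma protein albumin, against 23 to 1276 in the other 5. It had the highest level in 12 of 12 liver-made plasma protein genes, in 6 of 6 of the red cell genes and in 22.1% of all tested genes. Values without it are given for each of the 6 genes, and for most of the lists.

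Haemoglobin mRNA was present in every library and was lower on average at day 28. Reads of the 4 globin genes made up 0.0154%, 0.0349% and 0.0256% of the library in day 3 replicates 1 to 3. The day 28 libraries held 0.0110%, 0.0146% and 0.0124%. Every day 28 share was below every day 3 share, although the highest day 28 library (Wilson 95% interval 0.0140% to 0.0152%) lay next to the lowest day 3 library (0.0148% to 0.0161%) and these intervals overlapped. Such intervals cover counting error only. The mean share was 0.0253% ± 0.00974 (SD, n = 3) at day 3 and 0.0127% ± 0.00182 (SD, n = 3) at day 28, a ratio of 2.00. The ratio was 1.62 without day 3 replicate 2. With 3 libraries against 3, an exact two-sided permutation test cannot go below p = 0.1.

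None of the 6 genes passed the test across all genes, which was limma with Benjamini-Hochberg adjustment at 0.05 over 16162 genes. In that test 0.192% of genes were called in either direction and 0.124% were called lower at day 28. The unadjusted p was under 0.05 in 5 of the 6, all lower at day 28, where 6.39% of all genes were lower at that level. Leaving out day 3 replicate 2, or day 28 replicate 1, gave 3 of 6, and leaving out day 3 replicate 1 gave 6 of 6. In 3 of the 6 every day 28 library lay below every day 3 library, which held for 9.21% of all genes. The median log2 difference of the 6, day 28 minus day 3, was -1.05, against -0.01 over all genes tested. That median counts Slc4a1, and the middle value of the other 5 was -0.98, that of Hbb-bs. All 6 passed the filter on low values, a mean of at least 10 normalized counts, but Slc4a1 did so through day 3 replicate 2 and averaged 7.10 without it.

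**Figure D1:**
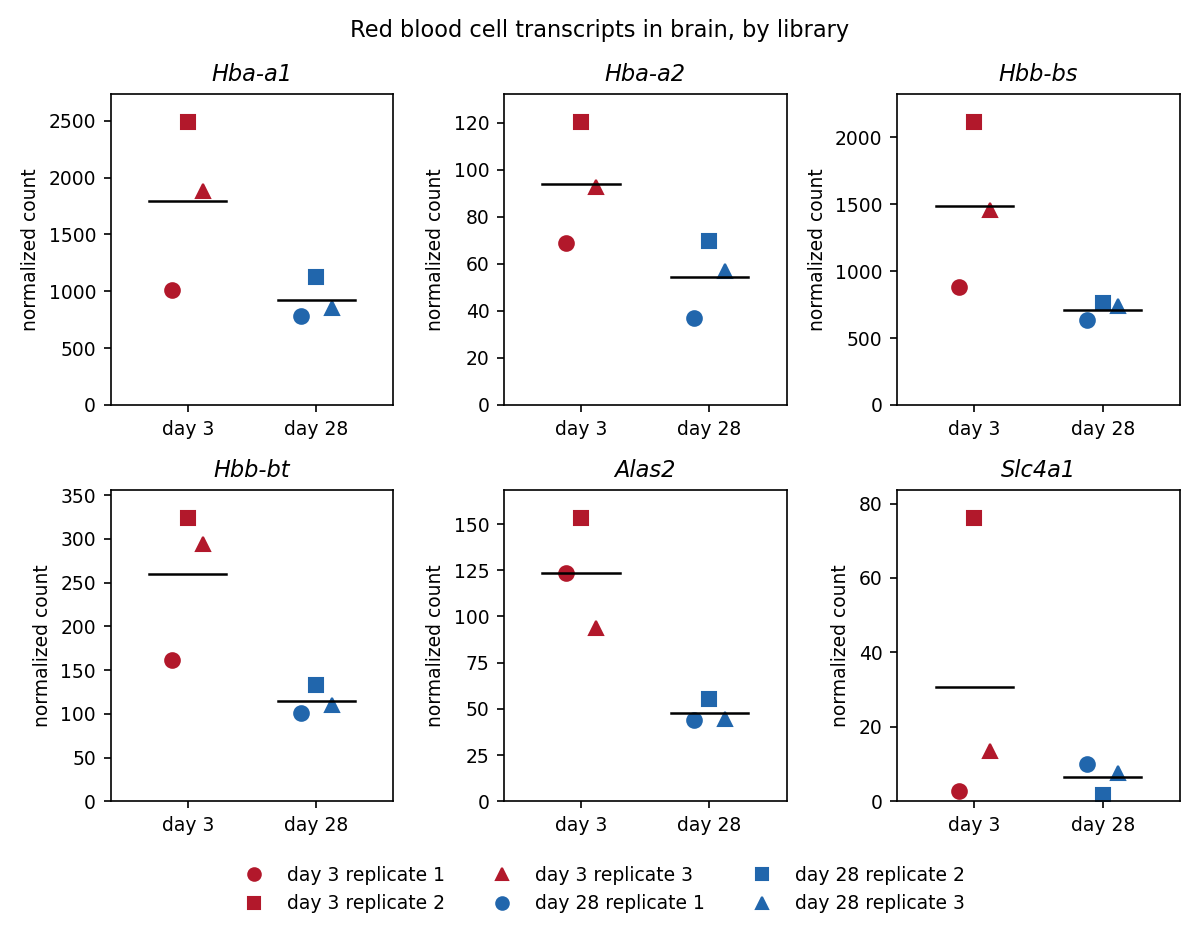
Normalized counts (linear axes from 0) of the 6 genes in each library, day 3 in red and day 28 in blue; the symbol gives the replicate and the black line the group mean, n = 3. Day 3 replicate 2 is the highest point in all 6 panels, and the groups do not overlap in Hbb-bs, Hbb-bt and Alas2.

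The alpha-globin genes overlapped between the groups. Hba-a1 (ENSMUSG00000069919, chromosome 11) had 1009, 2491 and 1883 normalized counts in the replicates of day 3, in order, against 787, 1128 and 853 at day 28. Day 3 replicate 1 lay below day 28 replicate 2, and the other two day 3 libraries lay above every day 28 library. The log2 difference was -0.88 (SE 0.29, limma adjusted p = 0.241). It was -0.60 without day 3 replicate 2.

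Hba-a2 (ENSMUSG00000069917, chromosome 11), the copy that took the smaller part of the alpha reads, had 68.7, 120 and 92.5 normalized counts at day 3 and 36.9, 69.6 and 56.9 at day 28. The lowest day 3 library and the highest day 28 library were nearly level here. The log2 difference was -0.78 (SE 0.33, limma adjusted p = 0.345), and -0.59 without day 3 replicate 2. Summed over both copies, the alpha pair gave -0.88 (SE 0.29, limma adjusted p = 0.237), and -0.60 without that library.

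The beta-globin genes did not overlap between the groups. Hbb-bs (ENSMUSG00000052305, chromosome 7) had 884, 2117 and 1458 normalized counts at day 3 and 634, 760 and 742 at day 28. The day 28 libraries were close to each other, with an SD of 68.2 around 712, while the day 3 libraries had an SD of 617 around 1486. The log2 difference was -0.98 (SE 0.27, limma adjusted p = 0.169), and -0.68 without day 3 replicate 2.

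Hbb-bt (ENSMUSG00000073940, chromosome 7) had 161, 324 and 295 normalized counts at day 3 and 101, 133 and 110 at day 28. All day 3 libraries were above all day 28 libraries, replicate 1 by the smallest margin. The log2 difference was -1.12 (SE 0.27, limma adjusted p = 0.138), and -0.93 without day 3 replicate 2. Summed, the beta pair gave -0.999 (SE 0.26, limma adjusted p = 0.159), and -0.72 without that library. Day 3 replicate 1 decided these calls: without it Hbb-bs (log2 -1.31, limma adjusted p = 0.0445), Hbb-bt (log2 -1.43, adjusted p = 0.0462) and the beta sum (adjusted p = 0.0391) passed.

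Alas2 (ENSMUSG00000025270, chromosome X) had the smallest p of the 6. It had 124, 153 and 93.7 normalized counts at day 3, a mean of 124 ± 29.7 (SD, n = 3), and 43.9, 55.4 and 44.5 at day 28, a mean of 47.9 ± 6.43 (SD, n = 3). The groups lay well apart, and unlike the globin genes the lowest day 3 library was replicate 3. The log2 difference was -1.33 (SE 0.26, limma unadjusted p = 0.000766, adjusted p = 0.0917). It was -1.16 without day 3 replicate 2, and of its 18 alternatives the gene passed in 1, with day 3 replicate 3 left out (log2 -1.51, limma adjusted p = 0.0286).

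Slc4a1 (ENSMUSG00000006574, chromosome 11) was near the limit of detection outside one library. The day 3 libraries held 3, 74 and 11 reads and the day 28 libraries 10, 2 and 8. Day 3 replicate 1 was below 2 of the 3 day 28 libraries. Its normalized counts spanned a 42.6-fold range, against 3.17 to 3.49-fold for the other 5 genes. The log2 difference was -1.33 (SE 1.13, limma adjusted p = 0.655), and -0.20 without day 3 replicate 2, so no difference was detectable at this depth.

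**Figure D2:**
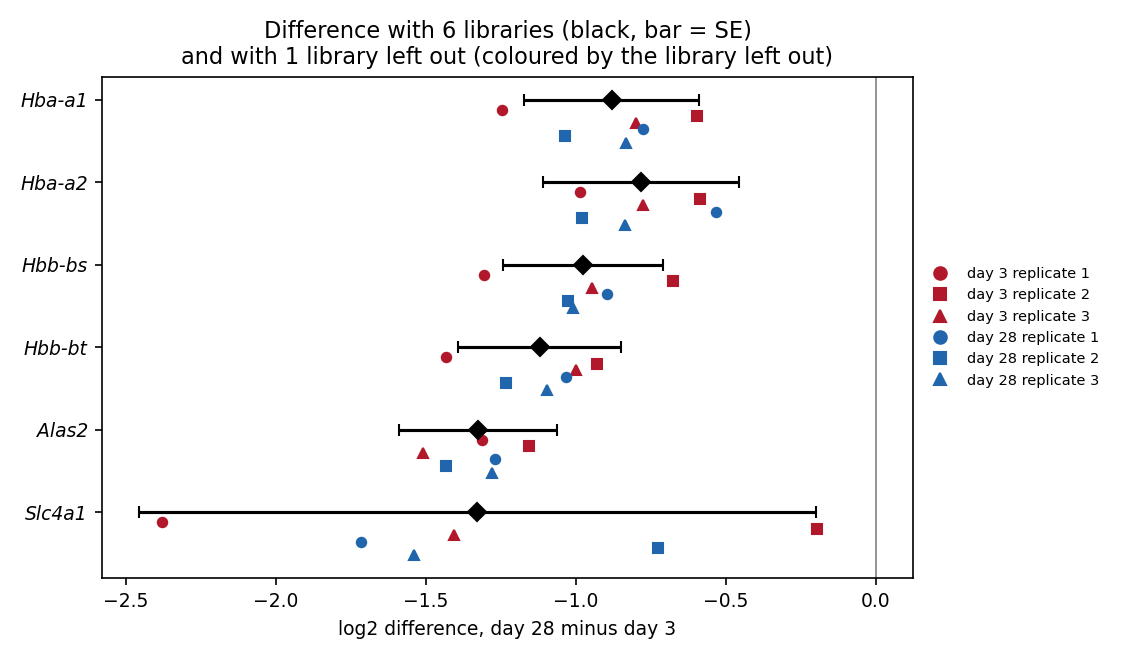
Log2 difference, day 28 minus day 3, of each gene with all 6 libraries (black diamond, bar = SE) and with 1 library left out (coloured symbols, named by the library left out). Every value lies below 0, from -2.38 to -0.20 for Slc4a1 and from -1.51 to -0.53 for the other 5 genes.

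Per kilobase of the longest transcript, the order of mean levels over the 6 libraries was Hba-a1 (1943 normalized counts per kb), Hbb-bs (1750), Hbb-bt (266), Hba-a2 (134), Alas2 (42.1) and Slc4a1 (4.09). The order held in 6 of 6 libraries for each pair of neighbours. Hba-a1 and Hbb-bs were nearly level, with a ratio of 1.03 to 1.33 within a library, far inside their spread between libraries. Hbb-bs stood 5.54 to 7.56 times above Hbb-bt per kilobase.

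Proportions within the red cell mRNA overlapped between the days. The ratio of alpha to beta reads was 1.03, 1.07 and 1.13 across the day 3 replicates, against 1.12, 1.34 and 1.07 at day 28 (exact two-sided permutation p = 0.5). Hba-a2 gave 6.37%, 4.61% and 4.68% of the alpha reads at day 3, against 4.48%, 5.82% and 6.25% at day 28 (exact permutation p = 1). Hbb-bt gave 15.4%, 13.3% and 16.8% of the beta reads at day 3, against 13.7%, 14.9% and 12.9% at day 28 (exact permutation p = 0.3). In all of these the groups overlapped, and the globin total varied much more than its make-up.

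Alas2 kept a narrow ratio to haemoglobin in 5 of the 6 libraries. Per 1000 haemoglobin reads there were 30.3 and 25.1 Alas2 reads in day 3 replicates 2 and 3, and 28.2, 26.5 and 25.3 at day 28. Day 3 replicate 1 stood above all of these, at 58.2. The exact permutation p was 0.4, and 0.833 after Benjamini-Hochberg adjustment over the 5 ratios. Slc4a1 ranged from 0.854 to 15.1 reads per 1000 haemoglobin reads (exact permutation p = 0.8, adjusted p = 1).

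**Figure D3:**
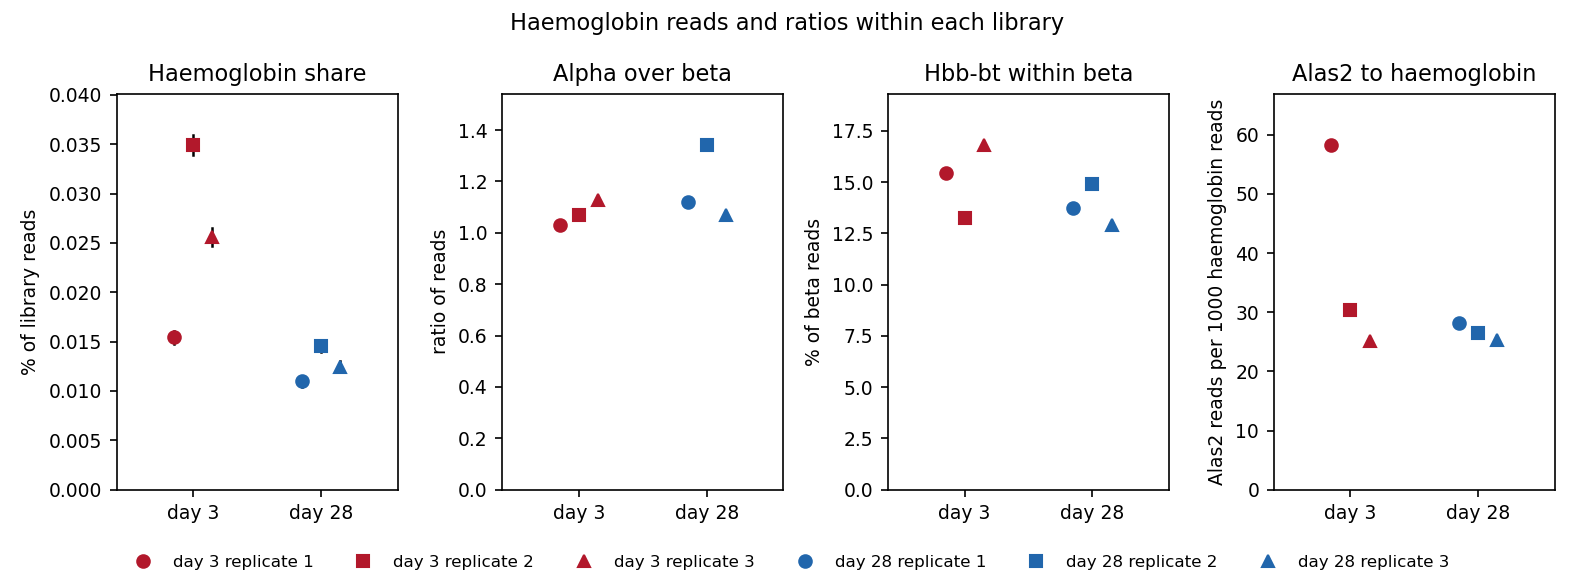
Haemoglobin reads as a percentage of the library (black bars, Wilson 95% interval), alpha over beta reads, Hbb-bt as a percentage of beta reads, and Alas2 reads per 1000 haemoglobin reads, by library, on linear axes from 0. The share separates the days while the 3 ratios overlap, and day 3 replicate 1 stands at 58.2 in the last panel.

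Other globins were rare or were not those of red cells. The embryonic globin genes Hba-x, Hbb-y, Hbb-bh1 and Hbb-bh2 had 0 reads in every library, which allows up to 3 of the 86321535 reads for each. Of the 9 listed genes with a row, 2 were tested and none was called. Cygb, a globin of fibroblast-like and other tissue cells, was lower without passing (log2 -0.31, SE 0.09, limma adjusted p = 0.190), and Ngb, the neuronal globin, gave -0.30 (SE 0.43, adjusted p = 0.809).

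The rest of the haem synthesis pathway, with its mitochondrial carriers, had 12 tested genes. Like Alas2 they did not pass: 0 were called by limma and 1 had an unadjusted p under 0.05. The median log2 difference was -0.10, and -0.02 without day 3 replicate 2. Alas1, the first enzyme of the pathway in cells other than red cells, had 900, 1169 and 925 normalized counts at day 3. At day 28 it had 820, 847 and 772 (log2 -0.29, SE 0.12, limma adjusted p = 0.351). Urod, which makes coproporphyrinogen, gave -0.29 (SE 0.13, adjusted p = 0.399).

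Of 20 red cell membrane and skeleton genes, 10 were tested, 0 were called and the median was -0.16, or 0.0076 without day 3 replicate 2. Many of the tested ones, such as Sptb, Ank1 and Add2, are also made by neurons. Cd59a, an inhibitor of complement lysis, gave -0.81 (SE 0.18, limma adjusted p = 0.120), and Tmod1, which caps actin filaments, gave 0.38 (SE 0.10, adjusted p = 0.164).

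Of the 9 tested regulators of red cell formation, 0 were called and the median log2 difference was 0.03. At an unadjusted p under 0.05 there were 2 of 9 lower, against 6.39% of all genes, and 3 of 9 higher, against 6.98% of all genes. Tal1, a transcription factor of blood stem and red cell precursors that also acts in some midbrain and hindbrain neurons, had 42, 56 and 30 reads at day 3, against 13, 20 and 11 at day 28 (log2 -1.62, SE 0.42, limma adjusted p = 0.159). Zfpm1, the GATA cofactor FOG-1, gave 0.45 (SE 0.15, adjusted p = 0.238). The erythroid factors Gata1 and Klf1 were too low to test and were chosen after their values were seen. Gata1 had 7 reads in day 3 replicate 2 and 0 elsewhere. Klf1 had 7, 12 and 2 reads at day 3, against 1, 0 and 0 at day 28.

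Reticulocyte and red cell enzyme genes had 16 tested members, of which 0 were called, with a median of -0.12, or -0.059 without day 3 replicate 2. A negative difference was found in 13 of the 16, and in 51.4% of all genes tested. Tent5c gave -0.72 (SE 0.30, limma adjusted p = 0.341) and Ube2l6, an enzyme of protein tagging by ISG15, gave -0.93 (SE 0.39, adjusted p = 0.352). Of 15 genes for haem and iron clearance, 0 were called and the median was -0.34, or -0.13 without day 3 replicate 2. Fth1, the ferritin heavy chain, gave -0.34 (SE 0.09, limma adjusted p = 0.172), and Cd163, the haemoglobin scavenger receptor of macrophages, had 7 to 35 reads and gave -1.26 (SE 0.56, adjusted p = 0.376). The plasma haemoglobin and haem binders Hp and Hpx had 4518 and 4184 reads in day 3 replicate 2 and at most 94 elsewhere.

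Markers of other blood components did not all move with the globin genes. Of 14 neutrophil genes 4 were tested and 0 were called. Lcn2 and S100a9 passed the filter on low values through day 3, where they were high, so no median is given. Csf3r gave -0.38 and Prtn3 -0.03. Lcn2 had 153, 215 and 37 reads at day 3, against 4, 7 and 11 at day 28 (log2 -3.92, SE 0.62, limma adjusted p = 0.0548). S100a9 had 40 reads in day 3 replicate 2 and 2 to 7 elsewhere (log2 -1.94, SE 0.99, adjusted p = 0.433). Lcn2 is also made by astrocytes and endothelium. The neutrophil list's summed level was 320 ± 128 normalized counts (SD, n = 3) at day 3 and 122 ± 6.44 at day 28. Within it Lcn2 averaged 135 at day 3 and 6.89 at day 28, Csf3r 122 and 86.9, and Prtn3 21.0 and 18.4. The sum rests largely on Lcn2 and Csf3r and is no measure of the list as a whole. The part of neutrophils in the haemoglobin values was not tested.

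Platelet genes had 4 tested members, 0 called and a median of 0.02, or 0.15 without day 3 replicate 2; Pf4 had 1 to 10 reads and Gp1bb 0 in every library. Nrgn, also an abundant neuronal gene, gave 0.34 (limma adjusted p = 0.577) and Itga2b -0.32 (adjusted p = 0.801). Lymphocyte genes had 4 tested members, 0 called and a median of -0.10, or 0.041 without day 3 replicate 2. Cd4 gave 0.77 (SE 0.20, limma adjusted p = 0.159) and Igkc -1.38 (SE 1.18, adjusted p = 0.658). Igkc had 93 reads in day 3 replicate 2 and 2 to 13 elsewhere, and passed the filter on low values through that library. Cd3d was at 0 in every library.

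The 12 liver-made plasma protein genes were spread widely among the day 3 libraries. Their summed level was highest in day 3 replicate 2, at 138880 normalized counts, and 0 of 12 were called. Their median log2 difference of -0.20 had no stable sign: leaving out day 3 replicate 2 gave 2.54, whereas leaving out day 3 replicate 1 gave -2.67. Trf (transferrin) gave -1.08 (limma adjusted p = 0.383) and Fgg (fibrinogen gamma) -1.25 (adjusted p = 0.834). Trf and Ttr (transthyretin) were high in every library, unlike Alb. In day 3 replicate 1 they had 5545 and 6802 reads beside 23 of Alb, and made up most of the list's sum there. The sum and the Trf difference are therefore no measure of liver mRNA alone. Alb was lowest in day 3 replicate 1, at 23 reads, and that library also had the lowest haemoglobin share of its group. Against day 28 the order was the reverse. Day 3 replicates 1 and 3 held 23 and 392 Alb reads, against 614 to 1276 at day 28. Their haemoglobin shares of 0.0154% and 0.0256% were above every day 28 share, the highest of which was 0.0146%. The part of liver-made plasma protein mRNA in the haemoglobin values was not tested.

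Of 15 endothelial genes, 0 were called and the median was -0.12, or 0.064 without day 3 replicate 1 and -0.12 without day 3 replicate 2. They were highest in day 3 replicate 1 in 12 of 15, the library whose globin level was the lowest of its group. Vwf gave -1.31 (SE 0.40, limma adjusted p = 0.209) and Ly6c1 -0.91 (SE 0.31, adjusted p = 0.253). The summed level of the 15 genes was 5976, 3424 and 3780 normalized counts at day 3, and 3713, 3922 and 3844 at day 28. The part of vessels in the haemoglobin values was not tested.

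Of the 8 tested dopamine neuron genes, 6 had every day 28 library below every day 3 library, against 9.21% of all genes. The test was passed by 3 of the 8, against 0.124% of all genes called lower, and these 3 fell at day 28: Slc6a3, the dopamine transporter, from 156 to 200 reads down to 2 to 4 (log2 -5.64, limma adjusted p = 0.00405), Slc18a2, the vesicular monoamine transporter (log2 -2.17, adjusted p = 0.0345), and En1, a midbrain factor with 44 to 63 reads at day 3, against 0 at day 28 (adjusted p = 0.0345). Slc6a3 and En1 passed the filter on low values through day 3, where they were high. Their day 28 means were 2.87 and 0 normalized counts. The 3 calls depended on the setting. With voom on the recovered reads, or with a replicate block, 0 of all genes tested passed. Leaving out day 28 replicate 1 left 1 gene past the threshold among all genes. The list was chosen with earlier results of these data known, so these shares are a description only. Th, which makes the dopamine precursor, gave -0.03 (limma adjusted p = 0.986). The summed level of the 10 listed dopamine neuron genes was 2804 ± 449 (SD, n = 3) at day 3 and 1554 ± 117 at day 28. The 3 day 3 libraries had similar Slc6a3 reads while their haemoglobin share ranged from 0.0154% to 0.0349%. The part of brain regions in the haemoglobin difference was not tested.

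**Figure D4:**
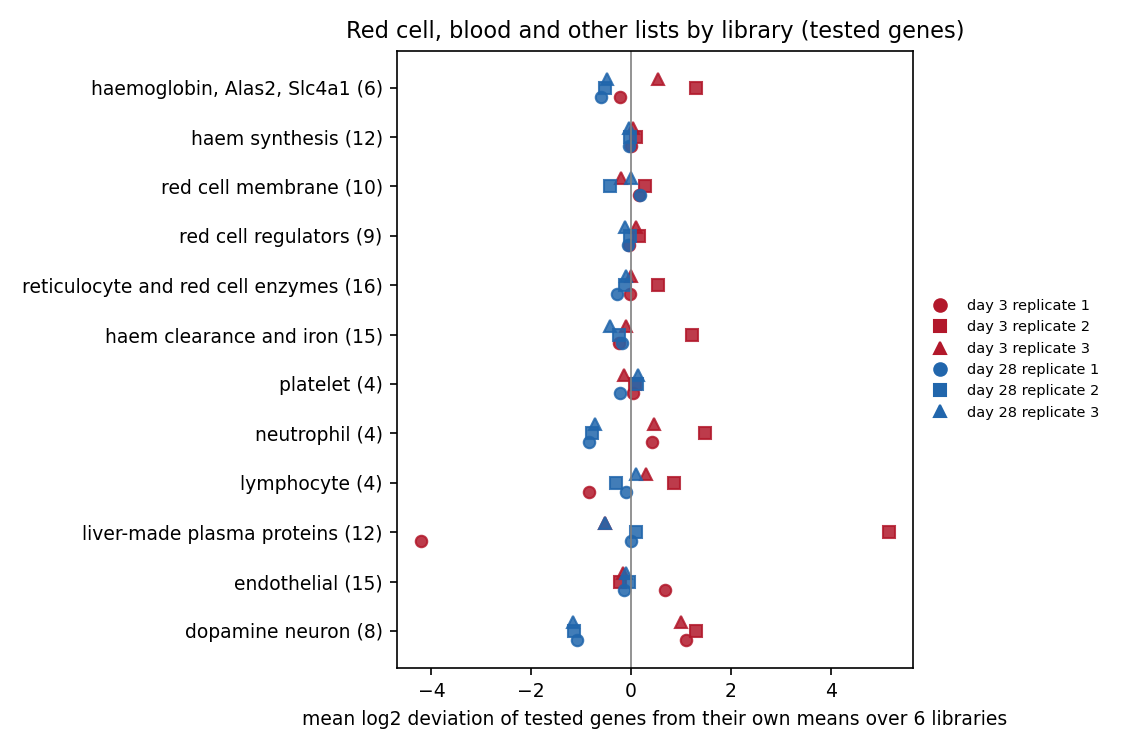
Mean log2 deviation of the tested genes of each list (number of genes in brackets) from each gene's mean over the 6 libraries, by library. The red cell genes run from -0.60 to 1.29 with day 3 replicate 2 highest, and the liver-made plasma proteins from -4.21 to 5.17. The days do not overlap in the red cell, haem synthesis, reticulocyte, neutrophil and dopamine neuron lists. In the neutrophil list (Lcn2, S100a9) and the dopamine neuron list (Slc6a3, En1), genes passed the filter on low values through day 3. That favours such a gap, so it is a description only. Slc4a1 in the red cell list and Pklr in the reticulocyte list passed it through day 3 replicate 2. The margin is small for haem synthesis (-0.0065 against -0.030) and reticulocyte genes (-0.017 against -0.11).

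Expressed as the mean deviation of the 6 genes from their own means, on the log2 scale, the libraries stood at -0.21, 1.29 and 0.53 for day 3, replicates in order, and at -0.60, -0.53 and -0.48 at day 28. Over the 4 haemoglobin genes alone they stood at -0.14, 0.95 and 0.59 for day 3 and at -0.73, -0.21 and -0.46 for day 28, so day 3 replicate 1 lay close to day 28 replicate 2. Slc4a1, with 2 to 10 reads at day 28, narrows the spread of the day 28 libraries in the mean over 6 genes and raises day 3 replicate 2. Around this profile the closest of the 6 was Hbb-bs, with a root mean square distance of 0.11 log2 units, and the farthest was Slc4a1, at 1.04.

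Among the other 16156 tested genes, the 10 with the smallest root mean square distance to this profile over the 6 libraries were G0s2 (0.17), Ceacam1 (0.19), Baiap2l1 (0.21), Gpx1 (0.22), 4933431K14Rik (0.23), Hfe (0.23), Sdc4 (0.25), Iqcd (0.25), Amacr (0.25) and Selenop (0.26). Ceacam1 (an adhesion receptor), Gpx1 (glutathione peroxidase), Hfe (a regulator of iron uptake) and Selenop (a secreted selenium carrier) are also strongly expressed in liver. Gpx1 had 584, 1344 and 761 normalized counts at day 3 and 507, 534 and 498 at day 28. Hfe had 24.7, 61.7 and 35.3 at day 3 and 26.0, 18.8 and 19.0 at day 28. All 10 were highest in day 3 replicate 2, as the profile they were ranked by was. The ranking rested on Slc4a1: with the profile of the other 5 genes, an alternative added after seeing the data, 2 of the 10 (G0s2 and Sdc4) were again among the 10 closest, and the closest was Krt1, a keratin (0.14). Of those 10, 9 were highest in day 3 replicate 2.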

How the data were processed

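Polyadenylated RNA of mouse brain was sequenced at 3 and 28 days, 3 libraries each, from stranded libraries made from 1 µg of RNA, per the labels' protocols. The deposited log2 values hold size-factor-scaled read counts with 1 added: undoing them gave whole reads for 100% of values within 0.001. The build was GRCm39, per the submitters' processing notes. The aligner, the counter and the authors' annotation are not given in the sources used here. Symbols came from GENCODE M21 names (52073 of 56748 identifiers matched), chromosomes and transcript lengths from the same release, and promoters from RefSeq.

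The 16162 genes whose normalized counts averaged 10 or more were tested with limma 3.58.1 in R 4.3.3 on log2(value + 1), group as the only term, a trend in the variance prior, two-sided, Benjamini-Hochberg at 0.05. Differences on this scale understate those of low genes. The procedure was tested on simulated data. No pair of libraries within a group agreed within sampling noise (lowest chi-square over degrees of freedom 8.98). Ratios within libraries used exact permutation tests.

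The 6 genes and all lists were chosen with earlier results of these data known. Named genes were the 6, per list up to 4 past the threshold and the 2 of smallest p, the 10 closest in pattern, and Alb, Slc6a3 and Th; others were chosen after their values were seen. Alternatives covered pseudocount, filter, scaling, variance model, weights, voom, a replicate block and leaving out each library.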

Additional observations from a re-analysis of the deposited data

How the results depend on the processing

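All 6 genes kept a lower value at day 28 under every alternative that gave one, 18 each and 17 for Slc4a1, which a filter at a mean of 50 removed. With limma, 0 of the 6 passed the threshold under every setting that kept all libraries, while 4 to 5 had an unadjusted p under 0.05 in those settings; leaving out 1 library gave 0 to 2, and 0 to 1 for the 2 summed globin pairs. The log2 ratio of haemoglobin shares, day 28 over day 3, ran from -1.26 to -0.70 over the libraries left out. The count over all genes was far less stable than the direction of these 6. It was 31, and it was 48 with a filter at a mean of 1, 68 with no filter, 3 with no trend in the variance prior, 74 with a robust prior, 69 with library weights and 0 with voom on the recovered reads. Leaving out 1 library gave 1 to 623. The cause of these changes was not tested. With a replicate block the count over all genes was 0, and 0 of the 6 passed. Over all genes tested, the deviations of same-numbered libraries correlated little, at 0.03, 0.13 and -0.06. The haemoglobin shares did rank alike by number in both groups, with replicate 1 lowest and replicate 2 highest. Whether the numbers pair the libraries is therefore not settled. Depth limits Slc4a1, with 2 to 74 reads, and the red cell genes too low to test.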
